A study of Homo sapiens with 14 samples.

Results

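PC3, an established human prostate cancer line, and HCT116, an established human colorectal cancer line, were compared in normoxia, with all oxygen-deprived libraries set aside. The comparison held 7 of the 14 polyadenylated RNA-seq libraries of the series, chosen by their labels alone, namely the 4 PC3 libraries and the 3 HCT116 libraries kept at 21% O2. The remaining libraries, 4 of PC3 and 3 of HCT116 kept at 0.5% O2 for 16 h, were used only to repeat the same comparison and to ask whether a difference changed with oxygen. PC3 cells were grown in a mix of DMEM and Ham's F12 and HCT116 cells in McCoy's 5a. Line and medium cannot be told apart, and each line is a single long-established culture that stands for neither tissue as a whole.

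Cell lines keep parts of the expression programme of the tissue they came from, held by lineage transcription factors such as the HOX proteins, and carry the mutations, deletions and silenced genes of their tumour. PC3 was derived from a bone metastasis and grows without androgen. HCT116 is known for an activating mutation of beta-catenin, the effector of WNT signalling.

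The PC3 libraries held 98021966 to 123935458 counts and the HCT116 libraries 136931675 to 147934177, so that HCT116 was the deeper line throughout. Levels are given in CPM, the count of a gene per 1000000 counts of its library after scaling of the totals, each mean with its SD over 4 PC3 or 3 HCT116 libraries. Where 2 means stand in parentheses, the first is that of PC3. Differences are log2 of PC3 over HCT116, as shrunken by the fit for low counts. The standard error (SE) was calculated from the test statistic of the fit and belongs to the difference before shrinkage. The same holds for the intervals of log2 differences. For genes with few counts in either line, the printed difference and its SE are therefore not a matched pair. At these depths a gene with no count in a library may still have lain below 0.0203 to 0.0306 CPM, the level of 3 counts. Pearson's r of log2 CPM was 0.988 to 0.995 among PC3 libraries, 0.994 to 0.995 among HCT116 libraries and 0.722 to 0.740 between the lines. The first principal component, with 96.4% of the variance, separated the lines, and the second, with 1.18%, set PC3 replicate 1 apart from the rest of its line. For 6 gene lists at which that library was often the highest, counts are also given without it. The study's methods call its RNA-seq samples biological replicates, and the labels do not say whether they came from separate cultures.

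Of 15206 genes tested, 12676 differed at an adjusted p below 0.05 (83.4%), with 6520 higher in PC3 and 6156 higher in HCT116. That excess was lost under upper-quartile scaling (6335 and 6342) and among genes with at least 10 counts in every library (5249 and 5297). Because the lines differed at very many genes, a stricter test against a minimum of 2-fold was used for all calls that follow. It called 3243 genes higher in PC3 (21.3% of those tested) and 2480 higher in HCT116 (16.3%). Counts of list members below are to be read beside these shares. The median log2 difference over all tested genes was 0.03 and the median size of a difference, whatever its sign, was 0.87. The libraries of the lines did not overlap at 12634 of the genes tested (83.1%), so the absence of overlap at a single gene is the usual finding here and is given below as a description.

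**Figure D1:**
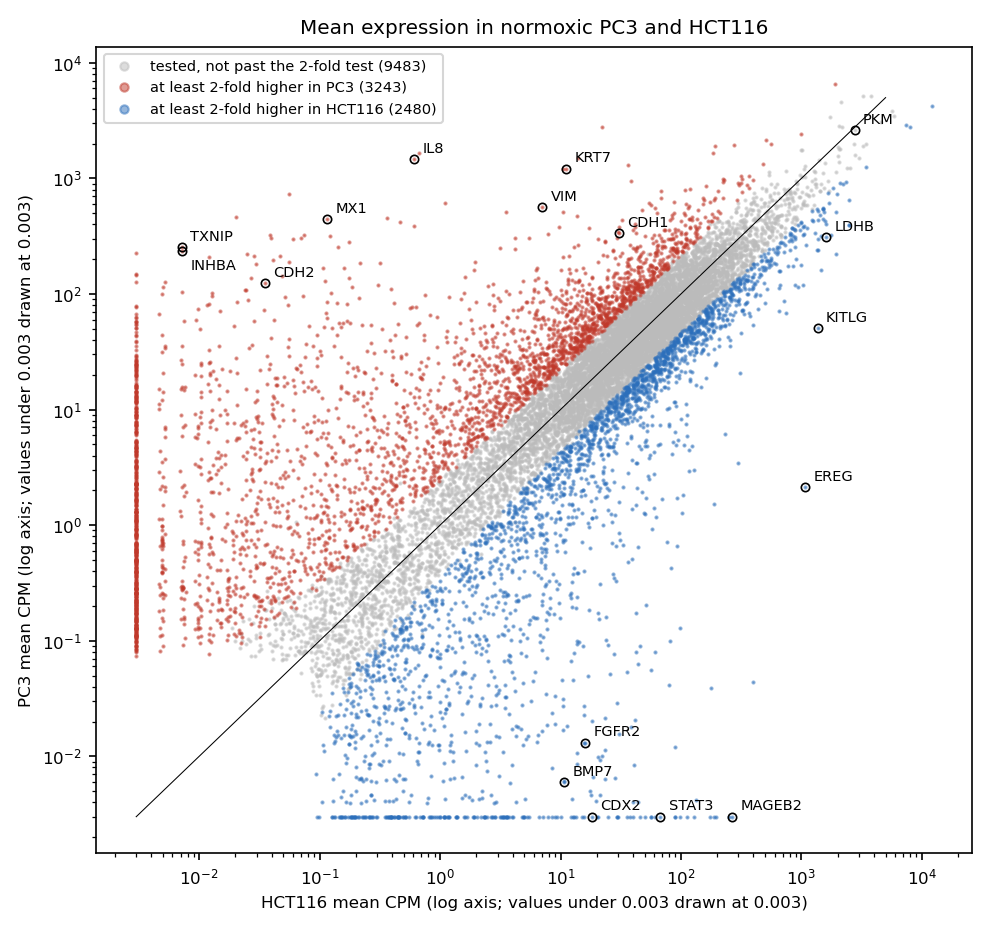
Mean CPM of each tested gene in HCT116 (horizontal, log axis) and PC3 (vertical, log axis), with genes past the 2-fold test in colour and the line of equal expression drawn. Points lined up along the left and bottom edges are genes at or near 0 in one line, among them CDX2, STAT3 and MAGEB2 at the bottom, and TXNIP and INHBA lay close to the left edge.

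The tissue labels were checked first. The androgen-induced proteases KLK2 and KLK3, which define prostate epithelium, were at 0 in all 7 libraries, although other prostate genes were higher in PC3 than in HCT116. Of the 23 genes on the list, 17 could be tested. Of these, 11 were higher in PC3 and 1 in HCT116, against 21.3% and 16.3% of all tested genes. The median log2 difference of the list was 2.15. Among those higher in PC3 was FOXA1, a pioneer factor of luminal prostate cells, which had 139, 139, 139 and 146 CPM in PC3 and 1.73, 1.54 and 1.60 CPM in HCT116 (log2 difference 6.44, SE 0.08, adjusted p = 5.04e-11). Every PC3 library lay far above every HCT116 library. SPDEF, an ETS factor of secretory epithelia, had 36.6 ± 4.59 CPM in PC3 and 0.0776 ± 0.0469 CPM in HCT116 (log2 difference 8.85, SE 0.25, adjusted p = 2.65e-09), and TMPRSS2, a membrane protease of prostate and gut epithelium, had 20.9 ± 5.65 CPM in PC3 and 0.00505 ± 0.00438 CPM in HCT116 (a ratio of 4246, 95% counting interval 1175 to 35070). HOXB13, the homeobox factor of the prostate, was also higher in PC3, and FKBP5, a glucocorticoid- and androgen-induced chaperone, was the single member higher in HCT116 (60.2 ± 4.71 and 138 ± 6.25 CPM, log2 difference -1.19, SE 0.07, adjusted p = 0.00826), a call lost with DESeq2.

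Intestinal identity was split between the lines. CDX2, the homeobox factor that specifies intestinal epithelium, had no count in any PC3 library and 19.8, 18.3 and 16.9 CPM in HCT116, at least 699.5-fold higher there. HNF4A, a nuclear receptor of gut and liver, had 0.0540 ± 0.0225 CPM in PC3 and 6.18 ± 0.140 CPM in HCT116 (log2 difference -6.81, SE 0.21, adjusted p = 5.74e-09), and USH1C, a brush-border scaffold protein, had no count in PC3 and 8.46 ± 0.349 CPM in HCT116. KRT20, a keratin of mature intestinal epithelium, was higher in HCT116 at a low level (0.189 ± 0.0464 and 1.23 ± 0.278 CPM), and the intestinal products CDH17, VIL1, LGALS4, FABP1 and GUCY2C were at or near 0 in both lines. In the other direction, CEACAM5, the carcinoembryonic antigen, had 29.9, 9.40, 13.5 and 10.4 CPM in PC3 and 0, 0.00736 and 0.0156 CPM in HCT116, and its neighbour CEACAM6 had 14.4, 5.55, 7.56 and 6.81 CPM in PC3 and no count in any HCT116 library. Both genes were high in all PC3 libraries, highest in replicate 1, and at or close to 0 in HCT116. As close relatives they may share some reads. CDX1 had no count in either line. Over the list, 10 of 20 tested members were higher in PC3 and 4 in HCT116, against 21.3% and 16.3% of all tested genes. A further 12 members were too low to test.

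Markers of blood, endothelium and fibroblasts were mostly near 0 in both lines. Summed over the 20 genes of that list, the level was 48.3 to 54.8 CPM in PC3 and 20.8 to 24.1 CPM in HCT116, most of it from CD68, a lysosomal protein of macrophages and many cultured cells, and from the collagen COL1A1. CD3E, CD3D and MS4A1 were at or near 0 in every library, and the haemoglobin gene HBA1 had no count in PC3 and 0.0998 ± 0.0278 CPM in HCT116. Of the 11 members tested, 8 were higher in PC3, against 21.3% of all tested genes. Among the 8 were PECAM1 (1.94 ± 0.265 and 0.0130 ± 0.0225 CPM) and PTPRC (0.622 ± 0.227 CPM and no count). Their part in the other results was not tested.

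Genes silent in one line were counted by a rule of at most 3 counts in every library of a line and a mean of at least 1 CPM in the other. With it, 149 genes were silent in PC3 and 347 in HCT116, of which 65 and 199 had no count at all in the silent line. These numbers are a description, since the rule itself sets the difference. Those with the highest levels in HCT116 included MAGEB2 and MAGEA3, cancer-testis antigens encoded on the X chromosome. Others were PTRF, which encodes the caveolar coat protein cavin-1, RAB5C, an endosomal GTPase, the metallothionein MT1E, the germ-cell piRNA factor GTSF1 and CYBA, a subunit of the NADPH oxidases. MAGEB2 had no count in PC3 and 261, 256 and 285 CPM in HCT116, at least 10209-fold higher. MT1E had no count in PC3 and 219.7, 182 and 188 CPM in HCT116, at least 7514-fold higher. For MAGEA3, at 128 ± 1.86 CPM in HCT116, reads of near-identical family members may have been assigned or dropped together. GDA, guanine deaminase, the tetraspanin TSPAN14, the lipid phosphatase PPAP2C and the inflammasome gene NLRP2 were at 0 in PC3 and between 89.0 ± 6.37 CPM (NLRP2) and 113 ± 10.96 CPM (GDA) in HCT116.

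Among genes silent in HCT116, TXNIP, the glucose-responsive inhibitor of thioredoxin, had the highest level in the other line. It had 305, 249, 261 and 204 CPM in PC3 and 0.00696, 0.0147 and 0 CPM in HCT116, which came to 34879, 31850, 26340, 24245, 1, 2 and 0 counts in the respective libraries, a ratio of 34550, 95% counting interval 11820 to 167500. INHBA, the subunit of activin A, had 259, 233, 238 and 215 CPM in PC3 and 0.0139, 0 and 0.00779 CPM in HCT116, a ratio of 32100, 95% counting interval 10980 to 155700. TMEM30B, a flippase subunit, EFEMP1, an extracellular matrix glycoprotein, TRIM58, a ubiquitin ligase, LXN, a carboxypeptidase inhibitor, TNFSF15, a cytokine of the tumour necrosis factor family, BASP1, a membrane-bound growth-cone protein, and LOC100505817, an uncharacterised transcript, had at most 3 counts in any HCT116 library. In PC3 they lay between 104 ± 2.39 CPM (BASP1) and 227 ± 18.4 CPM (TMEM30B). Further genes at 0 in HCT116 with large levels in PC3 were the interferon-induced IFI44L, S100A9, which encodes a subunit of calprotectin, WSCD1, the phosphodiesterase PDE1C, the prostaglandin F receptor PTGFR, the chemokine CXCL5, the neuronal RNA-binding protein ELAVL2 and the cytokine IL1B. They ranged from 43.5 ± 4.63 CPM for IL1B to 148 ± 75.6 CPM for IFI44L. Of 449 tested genes whose symbol begins with ZNF, which mostly encode zinc finger proteins, 131 (29.2%) were higher in PC3 and 43 (9.58%) in HCT116, against 21.3% and 16.3% of all tested genes. Of the same genes 28 (6.24%) were silent in HCT116 and 5 (1.11%) in PC3, against 2.28% and 0.98% of all tested genes.

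Of the 149 genes silent in PC3, 142 also had at most 3 counts in every hypoxic PC3 library, and of the 347 silent in HCT116, 285 had so in the hypoxic HCT116 libraries. The promoters of only 67.1% and 73.8% of these genes could be matched to the RefSeq promoter table, so a check of their sequence composition is void and none is given.

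Several silent genes were neighbours on the chromosome. The longest run in PC3, looked for after the values were seen, lay on chr17:40265129-40575274 (GRCh37) and held 6 consecutive genes among those with at least 1 CPM in either line. They were KAT2A, a histone acetyltransferase, RAB5C, GHDC, STAT5B and STAT3, transcription factors of cytokine signalling, and PTRF. STAT3 had no count in any PC3 library and 68.5, 69.2 and 64.6 CPM in HCT116, at least 2577-fold higher. KAT2A had no count in PC3 and 59.7, 53.6 and 57.1 CPM in HCT116, and STAT5B no count in PC3 and 2.75, 2.89 and 2.87 CPM in HCT116. ATP6V0A1, a proton pump subunit and the next such gene on one side, had 0.0612, 0.0391, 0.119 and 0.0336 CPM in PC3 and 45.3, 43.0 and 43.8 CPM in HCT116. NKIRAS2, the next on the other side, had 31.1, 29.0, 29.0 and 30.3 CPM in PC3 and 37.1, 34.9 and 33.8 CPM in HCT116 and did not pass the 2-fold test. STAT5A, between STAT5B and STAT3, was low in HCT116 as well (0.0263 ± 0.0233 CPM). The PC3 libraries thus held next to no reads from KAT2A to ATP6V0A1, and the interval of NKIRAS2 was narrow (log2 difference -0.24, 95% interval -0.38 to -0.10). A run of 3 genes on chromosome 19, CIC, PAFAH1B3 and PRR19, and pairs such as PARP6 with HEXA and FAM213A with TSPAN14 were silent in PC3 as well. In HCT116 the longest run held 5 protocadherin alpha genes, whose shared exons make single counts uncertain, followed by runs of 4 genes on chromosome 4 (STK32B, EVC2, EVC and CRMP1) and chromosome 18 (TMEM200C, L3MBTL4, ARHGAP28 and LAMA1).

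Tumour suppressor genes were split. Of the 30 on the list, 5 were higher in PC3 and 5 in HCT116, against 21.3% and 16.3% of all tested genes. Their median log2 difference was 0.02, close to that over all tested genes. SMAD4, the common mediator of TGF-beta and BMP signals, was lower in PC3 (19.5 ± 1.12 and 80.3 ± 3.41 CPM), as were SMAD2 and the kinase MAP2K4. NF1, a Ras GTPase-activating protein, was higher in PC3 (102 ± 5.72 and 16.5 ± 0.379 CPM, log2 difference 2.63, SE 0.07, adjusted p = 4.74e-09), with TGFBR2, ATM, CDKN2B and CDKN2C. RB1 (68.1 ± 3.95 and 87.2 ± 2.67 CPM) and CDKN2A (37.2 ± 4.93 and 53.2 ± 3.90 CPM) did not pass the 2-fold test.

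Genes induced by DNA damage leaned towards HCT116. Of 33 tested, 12 were higher in HCT116 and 3 in PC3, against 16.3% and 21.3% of all tested genes, and the median log2 difference was -0.88. CDKN1A, the cell-cycle inhibitor p21, had 65.4, 31.1, 29.4 and 28.3 CPM in PC3 and 124, 153 and 138 CPM in HCT116 (log2 difference -1.84, SE 0.27, adjusted p = 0.00451). PC3 replicate 1 stood above the other PC3 libraries and still below every HCT116 library, and the call was lost with DESeq2. MDM2, a ubiquitin ligase, had 80.7 ± 2.44 CPM in PC3 and 224 ± 13.3 CPM in HCT116 (log2 difference -1.47, SE 0.06, adjusted p = 8.69e-06), and the pro-apoptotic BBC3 had 0.739 ± 0.278 CPM in PC3 and 10.4 ± 1.44 CPM in HCT116 (log2 difference -3.82, SE 0.24, adjusted p = 1.34e-06). The death receptor FAS, FDXR, BTG2, SESN1, PPM1D, PLK3 and TNFRSF10C were also higher in HCT116. TRIM22, an antiviral ubiquitin ligase that interferon induces too, PHLDA3 and KIAA0247 were the 3 members higher in PC3.

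Among 12 mismatch repair genes, 3 were higher in PC3 and 2 in HCT116, against 21.3% and 16.3% of all tested genes. MSH3, which recognises larger loops, had 27.9, 31.7, 30.1 and 31.1 CPM in PC3 and 3.21, 3.29 and 2.96 CPM in HCT116 (log2 difference 3.26, SE 0.08, adjusted p = 3.06e-09). It was higher in every PC3 library, and MLH3 was higher in PC3 as well (47.2 ± 1.25 and 13.99 ± 0.399 CPM). MSH6 (129.7 ± 7.27 and 139 ± 7.30 CPM) and PMS2 (31.5 ± 2.75 and 34.6 ± 2.18 CPM) did not pass the 2-fold test. PMS1 was higher in HCT116 (23.8 ± 2.26 and 55.3 ± 1.53 CPM), a call lost with DESeq2. MSH5 was also higher there, at 0.785 ± 0.0877 CPM only and in a region of doubtful counts described below. In the PI3-kinase pathway the regulatory subunit PIK3R3 (34.6 ± 0.804 and 2.42 ± 0.360 CPM) and the lipid phosphatase INPP4B (73.7 ± 5.14 and 20.9 ± 1.33 CPM) were higher in PC3. The catalytic subunits PIK3CA (39.5 ± 0.578 and 18.5 ± 1.26 CPM) and PIK3CB (52.3 ± 0.887 and 78.4 ± 3.78 CPM) did not pass the 2-fold test, although PIK3CA passed it without HCT116 replicate 2. Over that list 3 of 20 tested members were higher in each line, against 21.3% (PC3) and 16.3% (HCT116) of all tested genes.

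**Figure D2:**
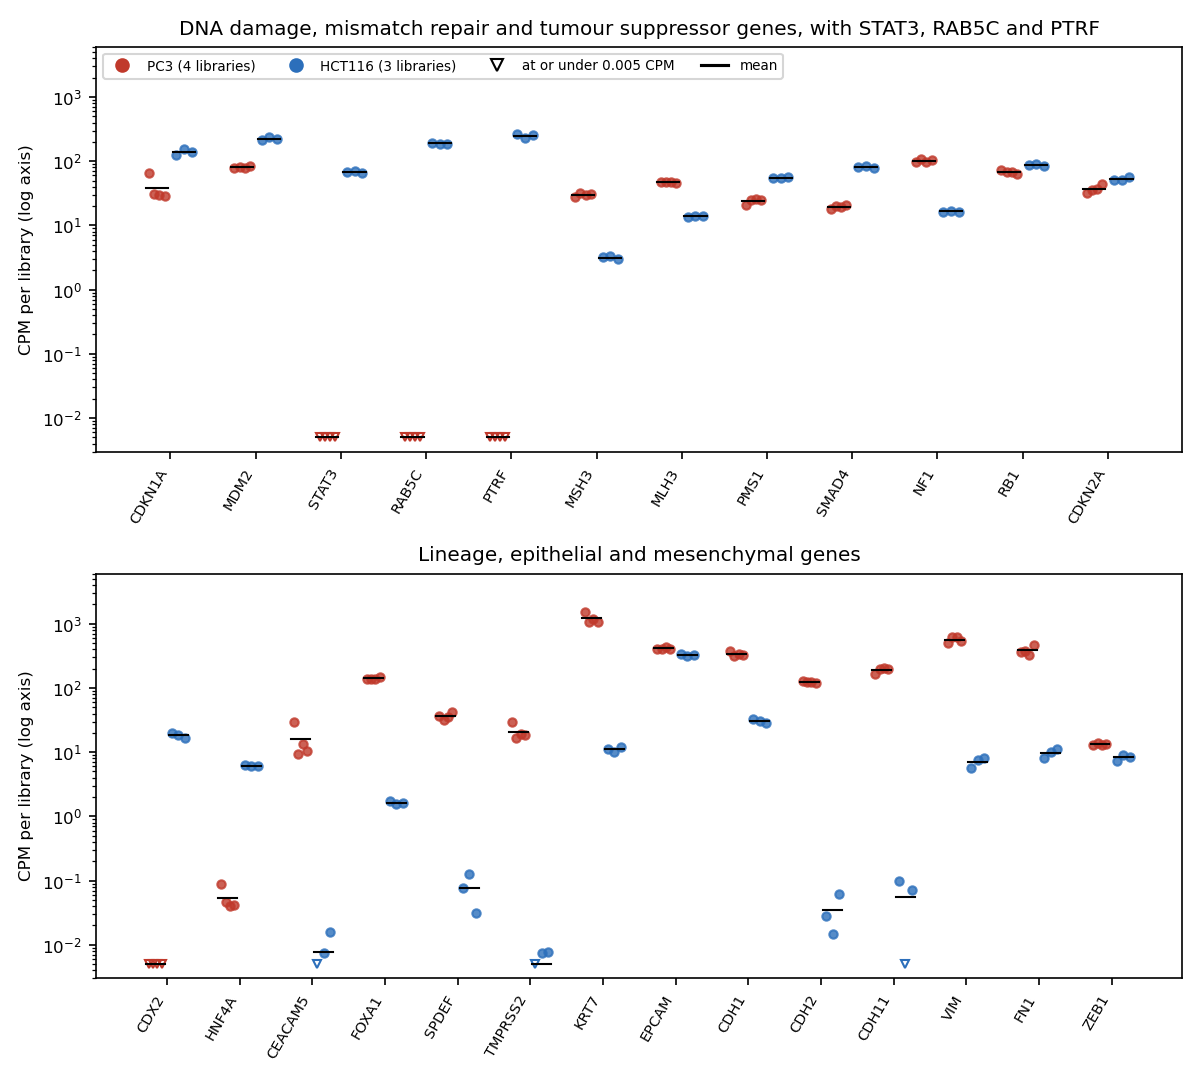
CPM of named genes in each library (log axis), with PC3 in red (4 points) and HCT116 in blue (3 points), means as bars and values at or under 0.005 CPM drawn as open triangles. CDKN1A, MDM2 and STAT3 lay lower in all PC3 libraries, MSH3, CDH2 and VIM higher, and EPCAM at 412 ± 10.8 CPM in PC3 and 328 ± 14.02 CPM in HCT116 lay close together.

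Epithelial and mesenchymal genes were both more often higher in PC3 than in HCT116. Of 32 epithelial genes, 14 were higher in PC3 and 1 in HCT116, against 21.3% and 16.3% of all tested genes. Their median log2 difference was 0.95. PC3 replicate 1 was the highest PC3 library at 26 of the 32, and without it 12 were higher in PC3, with a median of 0.85. Of 27 tested mesenchymal genes, 15 were higher in PC3 and 3 in HCT116, with a median of 2.42. CDH1, which encodes E-cadherin, had 378, 315, 334 and 321 CPM in PC3 and 32.8, 30.5 and 28.0 CPM in HCT116 (log2 difference 3.47, SE 0.09, adjusted p = 3.85e-09). CDH2, which encodes N-cadherin, had 127, 125, 124 and 121 CPM in PC3 and 0.0278, 0.0147 and 0.0623 CPM in HCT116 (log2 difference 11.78, SE 0.17, adjusted p = 7.77e-11). PC3 thus held more RNA of both cadherins in every library. The intermediate filament gene VIM had 493, 611, 616 and 530.4 CPM in PC3 and 5.69, 7.49 and 7.97 CPM in HCT116 (log2 difference 6.32, SE 0.16, adjusted p = 1.57e-09). The osteoblast cadherin CDH11 had 191 ± 18.6 CPM in PC3 and 0.0558 ± 0.0502 CPM in HCT116, and fibronectin, FN1, had 384 ± 60.5 CPM in PC3 and 9.79 ± 1.499 CPM in HCT116. The simple-epithelial keratin KRT7 was higher in PC3 (1214 ± 216 and 11.2 ± 0.966 CPM, log2 difference 6.77, SE 0.17, adjusted p = 1.57e-09). The adhesion molecule EPCAM differed little (log2 difference 0.33, 95% interval 0.20 to 0.46), and RAB25 was the single epithelial member higher in HCT116. Among the factors that drive mesenchymal change, SNAI2 was higher in PC3 (15.8 ± 1.16 and 0.0916 ± 0.0238 CPM), SNAI1 was higher in HCT116 (3.67 ± 0.160 and 12.1 ± 1.08 CPM) and ZEB1, at 13.3 ± 0.327 CPM in PC3 and 8.29 ± 1.03 CPM in HCT116, did not pass the 2-fold test.

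Matrix receptors and their ligands were more often higher in PC3 than in HCT116. Of 21 tested integrins, 12 were higher in PC3 and 3 in HCT116, and of 15 laminins and neighbours 11 and 1. The shares over all tested genes were 21.3% and 16.3%. ITGB2, the leukocyte beta subunit, had 68.4, 45.7, 52.9 and 49.3 CPM in PC3 and 0, 0 and 0.00779 CPM in HCT116, a ratio of 21960, 95% counting interval 3941 to 867400. ITGA2, a collagen receptor subunit, had 531 ± 44.2 CPM in PC3 and 47.6 ± 0.615 CPM in HCT116 (log2 difference 3.48, SE 0.08, adjusted p = 1.81e-09). LAMA3, a laminin chain of epithelial basement membranes, had 507 ± 48.4 CPM in PC3 and 3.55 ± 0.466 CPM in HCT116 (log2 difference 7.16, SE 0.14, adjusted p = 2.88e-10). LAMB3 (402 ± 77.4 and 41.4 ± 5.07 CPM) was also higher in PC3. The muscle laminin chain LAMA2 was higher in HCT116 (1.37 ± 0.128 and 14.03 ± 1.82 CPM). Of 17 claudins, which form tight junctions, 8 were higher in PC3 and 1 in HCT116. Replicate 1 was the highest PC3 library at 13 of the 17, and the counts were 8 and 1 without it. CLDN1 had 385, 130.3, 169.7 and 99.3 CPM in PC3 and 0.0556, 0.0515 and 0.0156 CPM in HCT116 (log2 difference 12.17, SE 0.80, adjusted p = 8.31e-07). Its PC3 level was the highest in replicate 1 and still above all HCT116 libraries in the lowest PC3 library. Cadherins were more evenly divided, with 8 of 16 tested higher in PC3 and 5 in HCT116, the latter including the desmosomal DSG2 (131 ± 4.26 and 381 ± 19.5 CPM, log2 difference -1.54, SE 0.06, adjusted p = 2.88e-06) and DSC3.

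Of the 38 gene lists, the interferon response had the largest share of members past the 2-fold test in 1 direction among lists of at least 10 tested genes. Type I interferons act through a factor complex that includes STAT2 and IRF9 and binds an element of repeated GAAA in the promoters of its targets. Cytokine genes controlled by the NF-kB family of factors carry a different element, beginning GGG and ending in CC. The sequences from 250 bases before to 50 bases after the start are shown for a few genes of these lists that hold such an element and were higher in PC3, from RefSeq on GRCh38.p14, with matches on either strand in capitals. For IFI44L and IFIT1 the match is GAAA, any 2 bases and GAAA again, and for the other genes it is GGG, any 2 bases and TTTCC.
IFI44L: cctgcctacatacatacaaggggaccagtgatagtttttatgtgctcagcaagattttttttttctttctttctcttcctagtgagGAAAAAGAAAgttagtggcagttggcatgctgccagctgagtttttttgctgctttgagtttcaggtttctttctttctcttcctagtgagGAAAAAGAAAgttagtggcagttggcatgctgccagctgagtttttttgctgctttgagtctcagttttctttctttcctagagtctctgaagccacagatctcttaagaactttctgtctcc
IFIT1: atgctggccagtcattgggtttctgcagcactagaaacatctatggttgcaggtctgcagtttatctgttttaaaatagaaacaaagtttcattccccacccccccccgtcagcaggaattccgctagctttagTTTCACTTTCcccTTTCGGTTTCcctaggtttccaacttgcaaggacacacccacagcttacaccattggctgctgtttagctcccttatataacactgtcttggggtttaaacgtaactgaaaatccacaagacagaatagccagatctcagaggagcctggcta
CXCL1: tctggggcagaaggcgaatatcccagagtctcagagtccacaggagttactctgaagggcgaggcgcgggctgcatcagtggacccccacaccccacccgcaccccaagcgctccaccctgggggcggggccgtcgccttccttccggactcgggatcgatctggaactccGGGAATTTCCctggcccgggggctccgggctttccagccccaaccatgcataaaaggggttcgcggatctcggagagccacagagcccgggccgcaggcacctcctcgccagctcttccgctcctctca
CXCL5: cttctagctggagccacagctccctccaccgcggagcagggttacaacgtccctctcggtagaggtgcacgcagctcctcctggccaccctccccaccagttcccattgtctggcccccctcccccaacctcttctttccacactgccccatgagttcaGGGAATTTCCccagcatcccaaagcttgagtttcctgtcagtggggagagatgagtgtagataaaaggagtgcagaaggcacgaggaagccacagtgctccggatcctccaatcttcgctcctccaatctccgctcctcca
CCL20: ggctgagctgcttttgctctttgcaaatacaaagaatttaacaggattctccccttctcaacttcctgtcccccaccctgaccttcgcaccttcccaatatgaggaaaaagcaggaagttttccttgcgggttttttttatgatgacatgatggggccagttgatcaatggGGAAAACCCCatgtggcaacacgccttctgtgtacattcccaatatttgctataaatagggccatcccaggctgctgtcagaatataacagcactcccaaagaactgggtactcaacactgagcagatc
IL6: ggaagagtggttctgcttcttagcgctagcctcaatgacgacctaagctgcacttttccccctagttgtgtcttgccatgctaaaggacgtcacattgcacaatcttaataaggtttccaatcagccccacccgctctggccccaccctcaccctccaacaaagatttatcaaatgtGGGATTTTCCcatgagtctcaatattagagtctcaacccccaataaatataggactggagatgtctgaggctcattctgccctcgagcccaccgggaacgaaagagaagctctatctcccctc
TNFAIP3: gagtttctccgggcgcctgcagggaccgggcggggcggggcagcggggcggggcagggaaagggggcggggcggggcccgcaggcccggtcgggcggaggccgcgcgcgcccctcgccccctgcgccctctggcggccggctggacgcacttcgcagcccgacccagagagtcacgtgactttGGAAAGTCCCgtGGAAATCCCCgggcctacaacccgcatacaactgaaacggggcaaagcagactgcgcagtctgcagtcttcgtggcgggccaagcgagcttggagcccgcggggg
The windows are chr4:73869143-73869442 (CXCL1, plus strand), chr4:73998628-73998927 (CXCL5, minus strand), chr2:227813592-227813891 (CCL20, plus strand), chr7:22726950-22727249 (IL6, plus strand), chr6:137867009-137867308 (TNFAIP3, plus strand), chr1:78620198-78620497 (IFI44L, plus strand) and chr10:89392373-89392672 (IFIT1, plus strand), all on GRCh38.p14.

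The promoter table matched 22 of the 30 interferon genes, too few for a share of promoters with the motif to be given. It matched 23 of the 27 tested NF-kB cytokine genes, and 11 of these 23 (47.8%) held the second of these elements, against 1.92% of all 27305 promoters in the table. The list was made of genes that NF-kB is known to control, so a high share follows from that choice and is no result of the comparison. This motif and the genes shown were picked after the values were seen, and a match in these windows is a description of the letters, not of binding.

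All 30 interferon response genes had a positive log2 difference, and 27 passed the 2-fold test, all higher in PC3. The median log2 difference was 4.89, against 0.03 over all tested genes. MX1, a dynamin-like antiviral GTPase, had 779.6, 418, 339.6 and 233 CPM in PC3 and 0.104, 0.147 and 0.0935 CPM in HCT116 (log2 difference 11.90, SE 0.62, adjusted p = 1.49e-07). OAS2, a synthetase that activates RNase L, had 356, 201, 171 and 122 CPM in PC3 and 0.0626, 0.00736 and 0.0156 CPM in HCT116 (log2 difference 12.77, SE 0.65, adjusted p = 1.22e-07). IFI44L had 255, 137, 121 and 78.2 CPM in PC3 and no count in any HCT116 library, at least 6691-fold higher. The PC3 libraries spread widely at these 3 genes, yet the lowest of them lay above every HCT116 library. IFIT1, which binds viral RNA, had a measurable level in HCT116 too (100.1 ± 52.6 and 3.75 ± 0.645 CPM, log2 difference 4.74, SE 0.41, adjusted p = 8.53e-06), as did ISG15, a ubiquitin-like modifier (171 ± 61.2 and 43.8 ± 0.122 CPM). The factors STAT2 (87.3 ± 20.5 and 18.4 ± 1.46 CPM) and IRF9 (73.0 ± 15.7 and 4.02 ± 0.640 CPM) were higher in PC3. IRF1, IFITM3 and TLR3 were the 3 members that did not pass the test. PC3 replicate 1 was the highest PC3 library at all 30 of the genes, against 37.5% of all tested genes. The summed level of the list was 6240 CPM there, 2589 to 3931 CPM in the other PC3 libraries and 472 to 506 CPM in HCT116. Without that library 27 members still passed the test, with a median of 4.44, and in the hypoxic libraries 28 did, with a median of 5.65. What sets replicate 1 apart was not tested.

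Cytokines and chemokines that NF-kB controls had a like pattern. All 27 tested had a positive difference and 22 passed the 2-fold test, with a median log2 difference of 4.42, or 4.17 when genes with no count in HCT116 were set to the lowest fold that 3 counts allow. IL8, the neutrophil chemokine CXCL8, had 2644, 1125, 1270 and 819.6 CPM in PC3 and 0.431, 0.515 and 0.888 CPM in HCT116 (log2 difference 11.24, SE 0.60, adjusted p = 1.75e-07). CXCL1, of the same family, had 92.3, 96.1, 88.8 and 90.5 CPM in PC3 and 0.146, 0.294 and 0.195 CPM in HCT116 (log2 difference 8.76, SE 0.16, adjusted p = 2.30e-10), with little spread among PC3 libraries. IL1B had no count in HCT116 and 36.9, 47.3, 43.6 and 46.1 CPM in PC3, at least 1968-fold higher. IL6 had 46.1, 17.6, 15.0 and 17.9 CPM in PC3 and no count in any HCT116 library, at least 1093-fold higher. CCL20, whose promoter is shown, was low even in PC3 (0.398 ± 0.265 CPM). The inhibitors TNFAIP3 (92.0 ± 35.1 and 3.02 ± 0.225 CPM) and NFKBIA (94.7 ± 16.2 and 23.4 ± 2.52 CPM) were higher in PC3. The subunits of NF-kB itself had smaller differences and did not pass the 2-fold test. RELA (log2 difference 0.42, 95% interval 0.27 to 0.57), NFKB2 (log2 difference 0.78, 95% interval 0.58 to 0.99) and RELB (log2 difference 0.53, 95% interval 0.23 to 0.83) had intervals above 0, and that of NFKB1 included 0 (log2 difference 0.00, 95% interval -0.12 to 0.13). TNF was listed at 0 in every library, as were several genes of its region (described below). Replicate 1 was the highest PC3 library at 20 of the 27 genes, and 22 members passed the test without it.

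**Figure D3:**
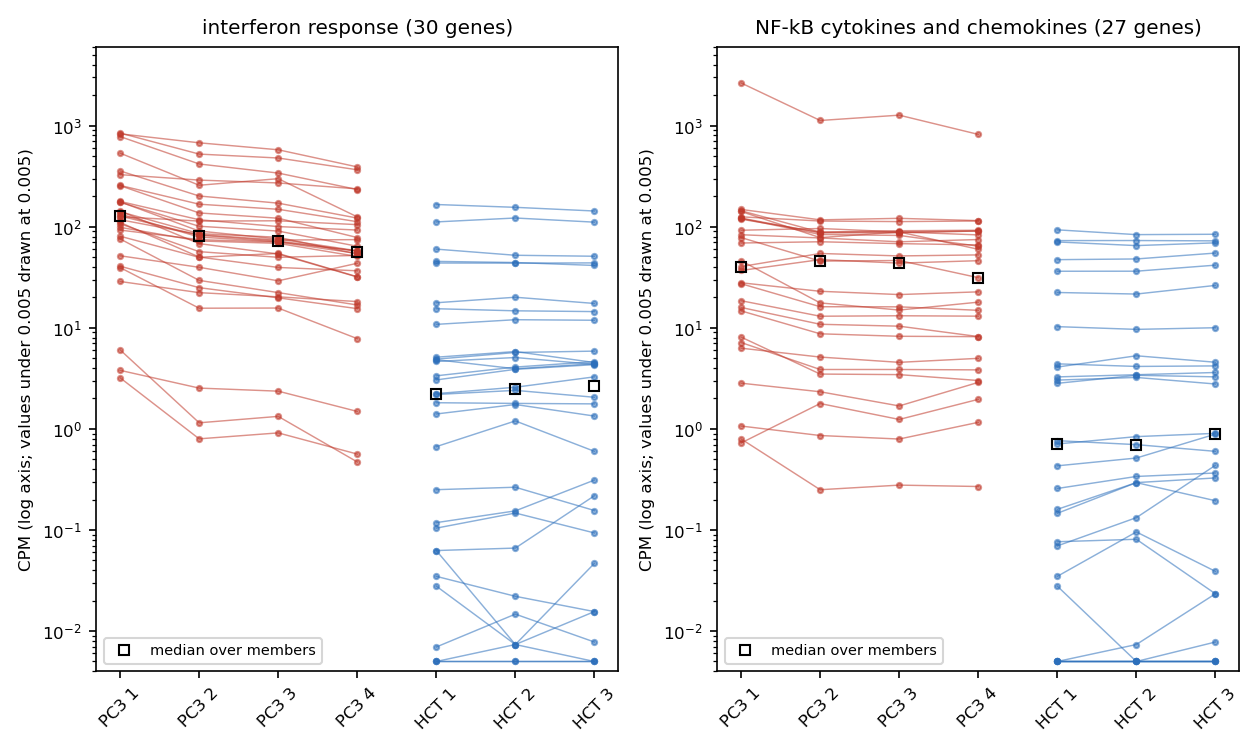
CPM of each tested interferon response gene (left) and NF-kB cytokine or chemokine gene (right) in each library (log axis), PC3 in red and HCT116 in blue, with thin lines joining a gene's values within a line and squares at the median over genes. All PC3 medians lay above all HCT116 medians, and PC3 replicate 1 was the highest PC3 library at all 30 interferon genes.

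Secreted epithelial products were much higher in PC3, with 17 of 22 tested mucins and related products past the 2-fold test, 1 in the other direction and a median log2 difference of 5.54. PI3, the elastase inhibitor elafin, had 1131, 538, 649 and 639 CPM in PC3 and 0.00696, 0.0662 and 0.0935 CPM in HCT116 (log2 difference 13.71, SE 0.50, adjusted p = 1.26e-08). TFF1, a trefoil peptide of gastric mucus, had 62.3, 23.4, 39.8 and 27.9 CPM in PC3 and 0, 0 and 0.00779 CPM in HCT116, a ratio of 15420, 95% counting interval 2767 to 609100. The lipocalin LCN2 (318 ± 203 and 0.123 ± 0.0113 CPM), the protease inhibitor SLPI (136 ± 59.1 and 0.0267 ± 0.0106 CPM), the disulfide isomerase AGR2 (85.7 ± 20.2 and 0.0208 ± 0.0360 CPM) and the gel-forming mucin MUC5B (62.1 ± 12.4 and 0.115 ± 0.0640 CPM) were all higher in PC3. Osteopontin, SPP1, was higher in HCT116 (0.0282 ± 0.0218 and 2.15 ± 0.617 CPM). MUC4 did not pass the test (0.404 ± 0.216 and 0.583 ± 0.0625 CPM). LCN2 and PI3 were highest in PC3 replicate 1, and without it 17 members still passed in the PC3 direction. Of 13 tested S100 genes, 4 were higher in PC3, namely S100A2, S100A9, S100A11 and S100P, and S100A4 was higher in HCT116 (4.80 ± 0.655 and 124 ± 34.4 CPM, log2 difference -4.69, SE 0.19, adjusted p = 3.44e-08). The shares over all tested genes were 21.3% in PC3 and 16.3% in HCT116.

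Antigen presentation could be read in part. CD274, the ligand PD-L1, was higher in PC3 (25.3 ± 13.2 and 1.73 ± 0.174 CPM, log2 difference 3.87, SE 0.38, adjusted p = 3.40e-05), as was the invariant chain CD74 (0.682 ± 0.502 and 0.0285 ± 0.0298 CPM). Over the list 7 of 13 tested members were higher in PC3, against 21.3% of all tested genes. For genes of the major histocompatibility complex itself the counts are doubtful. Of 53 genes with any count between 31000000 and 33000000 on chromosome 6 (GRCh37), 37 lay under 1 CPM in both lines, among them BAG6 (0.279 ± 0.180 and 0.139 ± 0.0184 CPM) and DDX39B (0.210 ± 0.0350 and 0.287 ± 0.103 CPM), which cells in general express. TAP1 and PSMB8 were listed at 0 in every library. Values of the HLA genes, MSH5 and TNF share this doubt, and its cause was not tested.

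Of the 34 cancer-testis genes 8 could be tested, since most were at or near 0 in both lines. MAGEB2, MAGEB1, MAGEA2, MAGEA3 and MAGEA6 were higher in HCT116, DAZL and TEX15 were higher in PC3 at under 1 CPM, and PRAME was expressed in both (33.9 ± 2.55 and 44.8 ± 4.09 CPM, log2 difference -0.40, 95% interval -0.59 to -0.22).

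Growth factor signalling differed in which members each line expressed. Of 15 tested ERBB genes, 7 were higher in PC3 and 4 in HCT116, against 21.3% and 16.3% of all tested genes. Among the ligands, EREG, which encodes epiregulin, had 2.48, 1.94, 2.14 and 1.96 CPM in PC3 and 1047, 1083 and 1106 CPM in HCT116 (log2 difference -8.99, SE 0.11, adjusted p = 5.04e-11). EPGN, which encodes epigen and lies next to EREG on chromosome 4, had 122, 123, 124 and 94.8 CPM in PC3 and 0.167, 0.206 and 0.179 CPM in HCT116 (log2 difference 9.29, SE 0.16, adjusted p = 1.80e-10). The order of the lines was thus opposite at neighbouring genes. AREG, which encodes amphiregulin, was higher in HCT116 (8.63 ± 1.12 and 37.7 ± 5.91 CPM), and BTC, EGF and HBEGF were higher in PC3. The receptor EGFR was higher in PC3 (316 ± 20.5 and 49.9 ± 1.83 CPM, log2 difference 2.66, SE 0.07, adjusted p = 7.66e-09), whereas ERBB2 (80.2 ± 13.6 and 72.1 ± 5.76 CPM) did not pass the test. ERBB4 was higher in PC3 at a low level (1.09 ± 0.696 and 0.0247 ± 0.0160 CPM).

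TGF-beta and BMP genes went both ways. Of 34 tested, 14 were higher in PC3 and 8 in HCT116, against 21.3% and 16.3% of all tested genes. The counts were 14 and 8 without PC3 replicate 1, the highest PC3 library at 22 of the 34. Higher in PC3 were the activin subunit INHBB (391 ± 26.3 and 0.611 ± 0.153 CPM, log2 difference 9.33, SE 0.17, adjusted p = 1.80e-10) and the ligand TGFB2 (612 ± 234 and 1.09 ± 0.249 CPM, log2 difference 9.13, SE 0.39, adjusted p = 3.65e-08). The activin antagonist FST (254 ± 27.7 and 0.142 ± 0.0184 CPM, log2 difference 10.80, SE 0.15, adjusted p = 7.76e-11) and the BMP antagonist NOG (35.7 ± 8.15 and 0.0880 ± 0.00847 CPM) followed the same direction. Of the BMP ligands, BMP7 had 0.00601 ± 0.00754 CPM in PC3 and 10.7 ± 0.149 CPM in HCT116, a ratio of 1648, 95% counting interval 564 to 7996. BMP4 was also higher in HCT116 (33.8 ± 3.88 and 132 ± 12.03 CPM), and BMP2 was higher in PC3 (0.292 ± 0.116 and 0.0229 ± 0.0234 CPM). The BMP-induced inhibitors ID1 (36.0 ± 6.27 and 161 ± 17.01 CPM), ID2 (5.49 ± 0.957 and 95.1 ± 12.7 CPM) and ID3 (1.70 ± 0.217 and 51.1 ± 3.32 CPM) were higher in HCT116 too. Their relative ID4 was higher in PC3 at a low level (0.332 ± 0.181 and 0.0578 ± 0.0283 CPM), as was SMAD6 (10.3 ± 1.12 and 1.99 ± 0.151 CPM). TGFB1 and the receptor TGFBR1 did not pass the 2-fold test.

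All 4 FGF receptor genes were higher in HCT116, with FGFR2 at 0.00874, 0.0156, 0.0198 and 0.00841 CPM in PC3 and 14.8, 17.4 and 16.1 CPM in HCT116 (log2 difference -10.17, SE 0.18, adjusted p = 1.96e-10). FGFR3 had 0.102 ± 0.0179 CPM in PC3 and 23.7 ± 2.26 CPM in HCT116 (log2 difference -7.85, SE 0.14, adjusted p = 2.11e-10). FGFR4 (15.8 ± 3.09 and 62.3 ± 3.44 CPM) and FGFR1 (16.0 ± 2.502 and 56.4 ± 3.40 CPM) were higher in HCT116, as were the ligands FGF19 (0.0913 ± 0.0574 and 24.7 ± 1.94 CPM), FGF9 and FGF18. FGF5 had no count in HCT116 and 14.3, 10.1, 10.0 and 6.73 CPM in PC3. The feedback inhibitors SPRY1 (55.8 ± 2.73 and 1.47 ± 0.139 CPM) and SPRY2 were higher in PC3, whereas SPRY4 was higher in HCT116 (31.4 ± 3.80 and 84.5 ± 4.59 CPM). In all, 8 of 18 tested members were higher in HCT116 and 6 in PC3, against 16.3% and 21.3% of all tested genes. The median log2 difference was -0.72. Among other receptor tyrosine kinases and ligands, 10 of 35 were higher in PC3 and 6 in HCT116, against 21.3% and 16.3% of all tested genes. KITLG, the ligand of KIT, had 60.5, 48.3, 54.3 and 40.0 CPM in PC3 and 1347, 1459 and 1297 CPM in HCT116 (log2 difference -4.75, SE 0.14, adjusted p = 4.34e-09). The receptors ROR2 (0.0215 ± 0.0274 and 23.3 ± 0.582 CPM) and RET (0.0146 ± 0.0237 and 3.08 ± 0.140 CPM) were higher in HCT116, and ROR1 was higher in PC3 (45.2 ± 5.17 and 3.42 ± 0.450 CPM). MET (640.4 ± 66.3 and 403 ± 18.4 CPM) and AXL (249.7 ± 19.1 and 149 ± 4.89 CPM) did not pass the 2-fold test.

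Feedback targets of the WNT pathway went both ways. Of 20 tested, 10 were higher in PC3 and 6 in HCT116, against 21.3% and 16.3% of all tested genes. Higher in HCT116 were AXIN2 (0.953, 1.14, 1.22 and 0.850 CPM in PC3 and 15.6, 17.5 and 17.3 CPM in HCT116, log2 difference -4.01, SE 0.13, adjusted p = 1.17e-08), which promotes the breakdown of beta-catenin, with NKD1 (0.156 ± 0.0329 and 9.92 ± 0.827 CPM) and NKD2, inhibitors of Dishevelled. The others were NOTUM (0.222 ± 0.0336 and 6.96 ± 0.625 CPM), which inactivates WNT ligands, RNF43 (13.6 ± 0.833 and 49.7 ± 2.10 CPM), which removes WNT receptors, and the factor TCF7 (14.3 ± 1.34 and 37.1 ± 2.76 CPM). The 10 higher in PC3 included DKK1 (986 ± 214 and 322 ± 42.0 CPM), CD44 (968 ± 52.1 and 394 ± 27.6 CPM) and EPHB2 (62.8 ± 1.01 and 16.8 ± 0.373 CPM). SP5, PRR5L and TNFRSF19 were also among them, and, at low levels, LEF1 (0.452 ± 0.0868 CPM and no count) and the stem cell receptor LGR5 (0.141 ± 0.0320 and 0.00750 ± 0.00736 CPM).

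HOX genes record position along the body axis, and each cluster differed between the lines in some of its members. HOXB13 had 67.7, 82.5, 87.5 and 94.3 CPM in PC3 and 9.96, 10.5 and 10.8 CPM in HCT116 (log2 difference 2.99, SE 0.12, adjusted p = 5.82e-08). HOXB7 had 1.22, 1.12, 1.07 and 1.25 CPM in PC3 and 58.5, 59.7 and 67.6 CPM in HCT116 (log2 difference -5.73, SE 0.09, adjusted p = 1.29e-10). HOXB8 (0.926 ± 0.231 and 58.0 ± 2.98 CPM) and HOXB4 (0.352 ± 0.151 and 27.8 ± 1.27 CPM) were higher in HCT116 like HOXB7, so that the direction changed along the cluster. Of 10 tested genes of that cluster 2 were higher in PC3 and 3 in HCT116, against 21.3% and 16.3% of all tested genes. In the HOXA cluster, with 13 tested, HOXA13 (22.1 ± 1.94 and 4.43 ± 0.475 CPM), HOXA2, HOXA4 and the transcript HOTTIP were higher in PC3 and HOXA7 (3.01 ± 0.227 and 27.0 ± 1.58 CPM) in HCT116. In the HOXC cluster 6 of 9 tested members were higher in PC3, among them the transcript HOTAIR (2.78 ± 0.164 and 0.0904 ± 0.0744 CPM) and HOXC8 (13.97 ± 0.778 and 0.562 ± 0.0488 CPM, log2 difference 4.63, SE 0.11, adjusted p = 1.50e-09), and HOXC9 was higher in HCT116 (0.841 ± 0.115 and 7.08 ± 0.379 CPM). HOXD genes were low in both lines and 3 of the 10 could be tested, of which 2 were higher in PC3 and 1 in HCT116. Overlapping transcripts within a cluster could not be separated where the counting did not use strand.

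**Figure D4:**
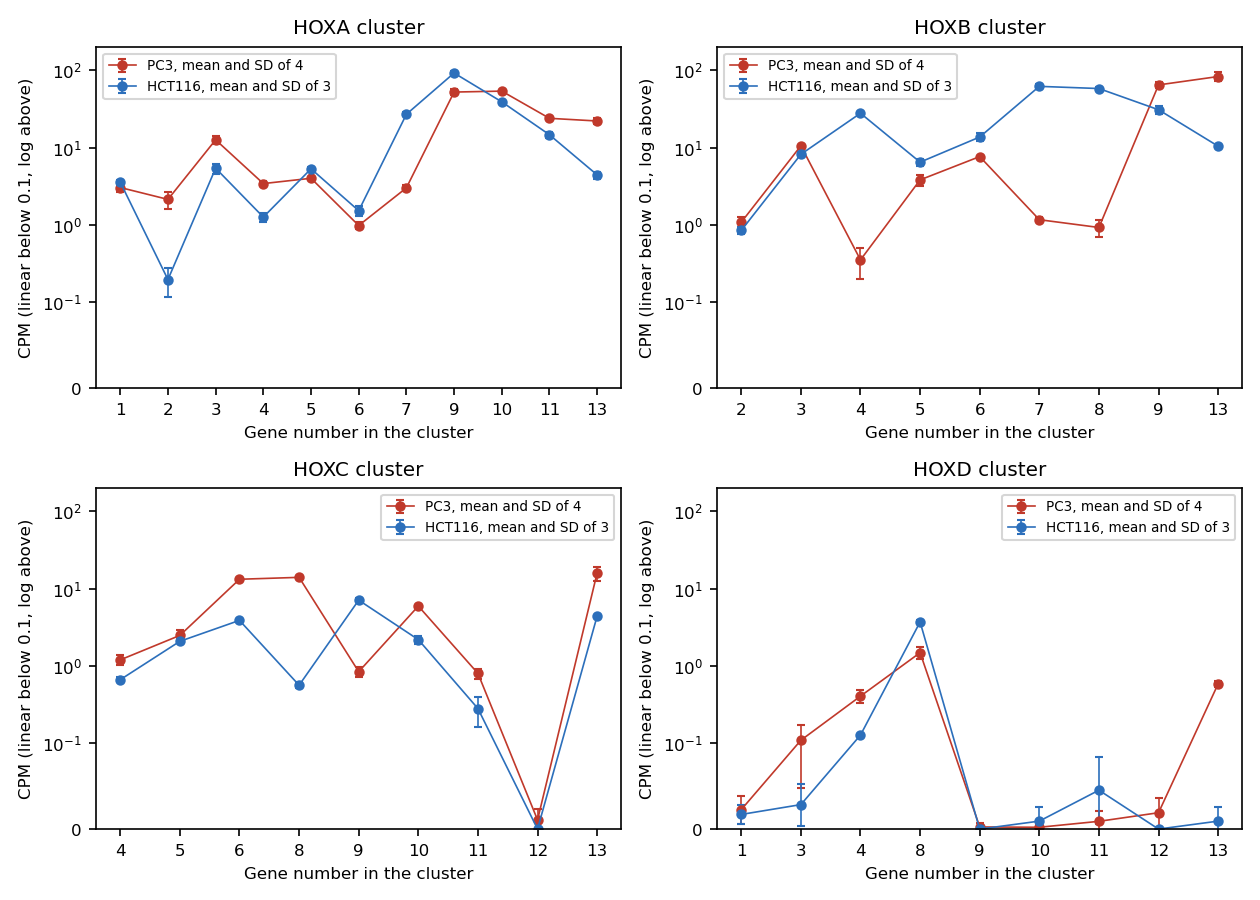
Mean CPM of HOX genes by their number in each of 4 clusters, PC3 in red (mean and SD of 4 libraries) and HCT116 in blue (mean and SD of 3), on an axis that is linear below 0.1 and logarithmic above. In the HOXB cluster HCT116 lay higher at numbers 4 to 8, and PC3 at 13, where it had 83.0 ± 11.3 CPM against 10.4 ± 0.440 CPM.

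Of 49 tested lineage transcription factors, 21 were higher in PC3 and 14 in HCT116, against 21.3% and 16.3% of all tested genes. Beside FOXA1 and SPDEF, PC3 was higher for FOXA2 (7.05 ± 2.32 and 0.0729 ± 0.0583 CPM), MEIS1 (2.63 ± 0.340 and 0.00505 ± 0.00438 CPM), a HOX cofactor, TBX2 and SATB1. HCT116 was higher for FOXA3 (0.278 ± 0.101 and 9.29 ± 0.583 CPM), TBX18 (0.00248 ± 0.00496 and 12.9 ± 1.44 CPM), PAX2 (0.159 ± 0.0441 and 5.97 ± 0.360 CPM) and IRX3. The 3 FOXA genes, pioneer factors of endodermal tissues, did not share a direction. Basal epithelial genes were mostly higher in PC3, with 10 of 13 tested, although the defining basal keratins KRT5 and KRT14 were at or near 0 in both lines (KRT5 had 0.0384 ± 0.0475 CPM in PC3 and 0.0457 ± 0.0267 CPM in HCT116). Of 8 tested neuroendocrine genes, 3 were higher in HCT116, led by SCG2 (1.16 ± 0.299 and 18.1 ± 1.25 CPM), and 1 in PC3, and CHGA was near 0 in both.

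Metabolic genes were read list by list. Of 24 tested glycolysis isozymes, 3 were higher in each line, against 37.6% of all tested genes in either direction, and the median log2 difference was -0.07. LDHB, the heart-type lactate dehydrogenase, had 239, 333, 330.0 and 342 CPM in PC3 and 1524, 1660 and 1604 CPM in HCT116 (log2 difference -2.36, SE 0.12, adjusted p = 1.17e-06). The enolase ENO1 had 1257 ± 89.5 CPM in PC3 and 3470 ± 85.2 CPM in HCT116 (log2 difference -1.47, SE 0.07, adjusted p = 5.27e-05), and the glucose transporter SLC2A3 0.0704 ± 0.0498 CPM in PC3 and 7.79 ± 1.92 CPM in HCT116. Both were higher in HCT116 like LDHB. HK1 was higher in PC3 (280.4 ± 6.94 and 94.1 ± 1.56 CPM, log2 difference 1.58, SE 0.05, adjusted p = 7.62e-07), and HK2 had 204 ± 9.41 CPM in PC3 and 100.4 ± 8.69 CPM in HCT116 and did not pass the 2-fold test. Serine and one-carbon genes had 7 of 23 members higher in HCT116 and 2 in PC3, against 16.3% and 21.3% of all tested genes. PSAT1 (65.8 ± 3.12 and 273 ± 24.7 CPM), MTHFD2 (199 ± 5.58 and 557 ± 25.7 CPM) and GCSH were higher in HCT116. CBS, the first enzyme of transsulfuration and 1 of 2 members higher in PC3, had 10.1 ± 2.27 CPM in PC3 and 0.0410 ± 0.0524 CPM in HCT116 (log2 difference 7.96, SE 0.48, adjusted p = 4.65e-07). PHGDH (80.0 ± 13.2 and 78.6 ± 11.8 CPM) did not pass the test.

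Fatty acid and sterol synthesis had 10 of 30 members higher in HCT116 and 4 in PC3, against 16.3% and 21.3% of all tested genes. FASN, fatty acid synthase, had 381, 422, 412 and 523 CPM in PC3 and 1522, 1324 and 1291 CPM in HCT116 (log2 difference -1.67, SE 0.11, adjusted p = 7.09e-05). FDFT1, INSIG1 and the regulator SREBF1 were higher in HCT116 as well. The desaturase FADS2 (264 ± 39.9 and 14.01 ± 0.976 CPM) and the elongase ELOVL2 were higher in PC3. Of 19 tested mitochondrial and creatine genes 5 were higher in PC3 and 4 in HCT116, against 21.3% and 16.3% of all tested genes. GLUD1 (42.2 ± 1.22 and 244 ± 17.03 CPM) and the creatine kinase CKB (68.0 ± 7.28 and 368 ± 19.6 CPM) were among the latter, and the gluconeogenic FBP1 (34.5 ± 1.77 and 0.0551 ± 0.0337 CPM, log2 difference 9.23, SE 0.20, adjusted p = 5.56e-10) was among the former.

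Detoxifying enzymes were divided, with 9 of 35 aldo-keto reductases, aldehyde dehydrogenases and NRF2 targets higher in PC3 and 7 in HCT116. Of 28 drug-conjugating enzymes 11 and 7 were. The shares over all tested genes were 21.3% and 16.3%, not far from those of the first list. ALDH1A3 had 1938 ± 202 CPM in PC3 and 276 ± 15.4 CPM in HCT116 (log2 difference 2.81, SE 0.10, adjusted p = 4.08e-08) and ALDH2 0.312 ± 0.0537 CPM in PC3 and 21.4 ± 1.69 CPM in HCT116 (log2 difference -6.10, SE 0.14, adjusted p = 7.40e-10), in opposite directions. NQO1 (125 ± 5.27 and 494 ± 28.1 CPM) and HMOX1 (8.02 ± 1.26 and 31.0 ± 1.67 CPM), both targets of NRF2, were higher in HCT116, and AKR1C3 (4.71 ± 1.89 and 0.124 ± 0.0316 CPM), also an NRF2 target, in PC3. The glutathione transferase GSTM3 had 21.8, 21.4, 19.9 and 20.1 CPM in PC3 and 0, 0.00736 and 0 CPM in HCT116, a ratio of 8510, 95% counting interval 1527 to 336100, and GSTT1 had 12.3 ± 0.620 CPM in PC3 and 0.00260 ± 0.00450 CPM in HCT116, a ratio of 5047, 95% counting interval 906 to 199400. CYP24A1, which inactivates vitamin D, had 3.004 ± 0.198 CPM in PC3 and 128 ± 9.45 CPM in HCT116 (log2 difference -5.41, SE 0.08, adjusted p = 1.04e-10), and CYP1B1 had 122 ± 13.5 CPM in PC3 and 2.76 ± 0.209 CPM in HCT116 (log2 difference 5.47, SE 0.12, adjusted p = 5.88e-10). In nucleotide, arginine and polyamine metabolism 5 of 24 tested genes were higher in PC3 and 3 in HCT116. Of all tested genes 21.3% and 16.3% were. MTAP was higher in HCT116 (84.3 ± 4.98 and 348 ± 4.26 CPM), and the pyrimidine-degrading DPYD (22.1 ± 3.13 and 2.17 ± 0.137 CPM) and UPP1 were higher in PC3. Members of the GSTM, GSTT and AKR1C families are close copies and their single counts are uncertain.

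**Figure D5:**
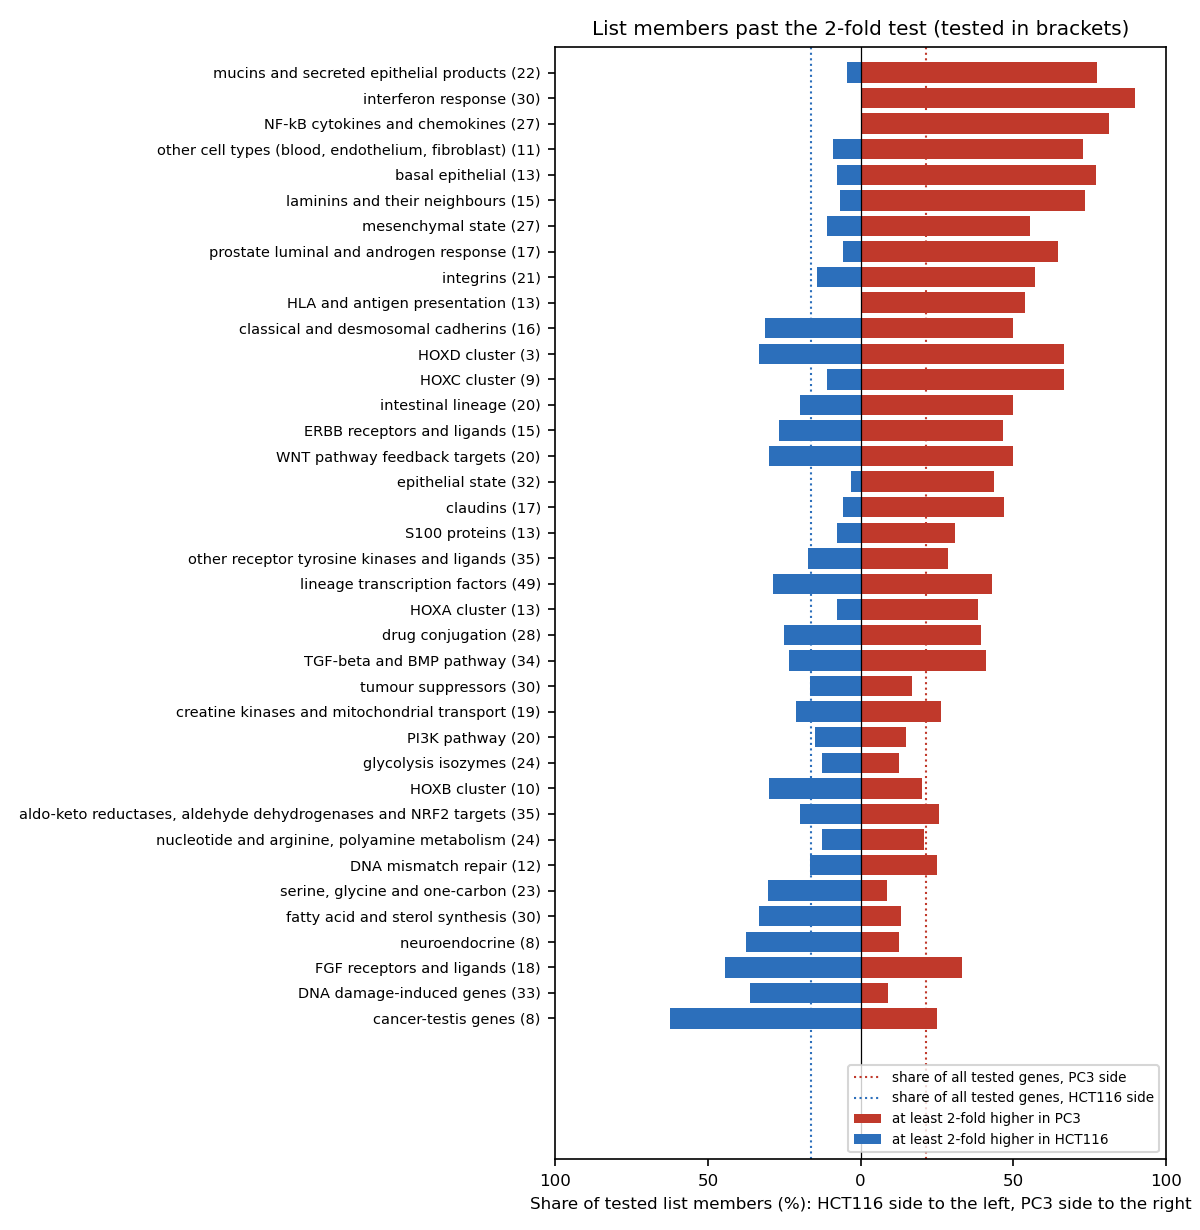
Share of the tested members of each of 38 gene lists that passed the 2-fold test, with members higher in PC3 to the right (red), members higher in HCT116 to the left (blue) and dotted lines at the shares of all tested genes (21.3% and 16.3%). The lists are ordered by median log2 difference, with mucins and secreted products, interferon response and NF-kB cytokines at the top and DNA damage-induced genes and cancer-testis genes at the bottom.

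Position on the chromosome was described without a test. Over 41 chromosome arms with at least 20 tested genes, the median log2 difference was lowest on 22q (-0.55), 16q (-0.52) and 8p (-0.49) and highest on 18p (0.81) and 21q (0.72), against 0.02 over all genes with an arm. On 16q, 80 of 292 tested genes were higher in HCT116 and 21 in PC3. On 18p, 21 of 59 were higher in PC3 and 7 in HCT116. Restricted to genes of at least 10 CPM, the medians were -0.53 on 22q, -0.53 on 16q, -0.48 on 8p, 0.67 on 18p and 0.46 on 21q. The order of the arms changed, since 4p (-0.56) was then the lowest and Xp (0.62), 20q (0.59) and 20p (0.55) stood above 21q.

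Genes with little difference were sought by an interval rather than by a missed test. Of 12666 tested genes whose mean level reached 1 CPM, 2737 (21.6%) had a 95% interval of the log2 difference within 0.5 of 0. The most abundant were PKM, pyruvate kinase (2611 ± 108 and 2762 ± 143 CPM, log2 difference -0.08, 95% interval -0.24 to 0.08), and ANXA2, a phospholipid-binding protein (1808 ± 87.8 and 2085 ± 147 CPM, log2 difference -0.21, 95% interval -0.37 to -0.04). Next came the nucleolar NCL (log2 difference -0.10, 95% interval -0.29 to 0.08), the translation factor EIF4G2 (log2 difference -0.21, 95% interval -0.38 to -0.04) and the splicing factor HNRNPA2B1 (log2 difference -0.20, 95% interval -0.44 to 0.03). Equality was thus bounded, not shown.

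The hypoxic libraries gave a repeat in other samples of the same lines. There 11713 of 14890 tested genes differed (78.7%) and 5427 passed the 2-fold test (36.4%). Of 5517 normoxic 2-fold calls that could be tested in hypoxia, 4908 passed the 2-fold test there in the same direction. At 10 of the 5517 the log2 difference had the opposite sign in hypoxia, whether or not it was called. The difference between the lines changed with oxygen at 359 of 15493 genes (2.32%) by the test of that interaction.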

How the data were processed

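The values are the deposited gene counts, raw and unnormalised, which per the labels and the study's methods the authors made from polyadenylated RNA with HISAT2 2.05 on GRCh37, SAMtools and HTSeq 0.5.4p3, after reads of the spiked-in control RNAs had been set apart. The strand setting and the annotation release are not given in the sources used here, and reads shared by near-identical genes may have been dropped. Groups came from the sample titles. Genes were kept by filterByExpr, scaled by TMM and tested with the quasi-likelihood fit of edgeR 4.0.16 (R 4.3.3), two-sided, with Benjamini-Hochberg adjustment over all 15206 genes at 0.05. Calls are against a minimum of 2-fold on the same fit (glmTreat), and adjusted p-values printed for genes are from that test. On simulated counts the plain test recovered 94 of 100 genes changed 2-fold and 100 of 100 changed 4-fold over 15055 genes, with 10 false calls. The 2-fold test recovered 99 of those changed 4-fold, with 0 false calls. Only these genes were changed in the simulation, whereas 83.4% of tested genes differed in the data, a setting that it did not cover. Genes without a count in a line are given a lowest fold from 3 counts per library, and those with 1 to 3 counts in all a ratio with an exact 95% counting interval, both covering counting error only. Genes were named by rule as the 10 largest changes each way at 10 CPM or more without overlap, the 10 highest genes silent in either line, the members of each list with the largest changes, at or near 0 or defining for it, and the 5 highest genes of little difference. Other list members were named for their role, and some members of the lists are counted but not reported here by name. The members, lists and alternatives were chosen with earlier results of these data known, and the motifs, the neighbouring silent genes and the region on chromosome 6 after the values were seen. Replicate numbers are shared between the lines, but the deviations of same-numbered libraries did not correlate (r of -0.03, -0.00029 and 0.02), so the numbers were not used as pairs. Alternatives in scaling (median of ratios, upper quartile, total count), filter, depth, length and GC content, replicate block, DESeq2 1.42.0 and libraries left out were run.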

Additional observations from a re-analysis of the deposited data

Results flagged for a closer look

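Single PC3 libraries stood apart at 26 of 241 items whose 4 PC3 values were compared by Dixon's criterion, where chance gives about 1 in 20. The items were genes named above, the total count of a library and the share of its 20 most abundant genes. All 26 were genes. Replicate 1 was the highest library, beside the range of the other 3, for BASP1 at 108 CPM (others 103.1 to 103.5), CCL20 at 0.796 CPM (others 0.2502 to 0.278), CDKN1A at 65.4 CPM (others 28.3 to 31.1), DDX39B at 0.262 CPM (others 0.189 to 0.195), EGF at 7.62 CPM (others 4.92 to 5.37), HBEGF at 68.3 CPM (others 32.9 to 38.4), HNF4A at 0.0874 CPM (others 0.0397 to 0.0469), IL6 at 46.1 CPM (others 15.0 to 17.9), LAMB3 at 518 CPM (others 356 to 370.3), NFKBIA at 119 CPM (others 83.0 to 88.9), PHLDA3 at 92.4 CPM (others 74.0 to 76.7), RELA at 125 CPM (others 112 to 114), RELB at 18.5 CPM (others 13.02 to 13.2) and SLPI at 224 CPM (others 99.0 to 118). Replicate 1 was the lowest for CKB at 57.1 CPM (others 70.9 to 72.1), HNRNPA2B1 at 1094 CPM (others 1450 to 1478), LDHB at 239 CPM (others 330.0 to 342) and PTGFR at 44.6 CPM (others 61.2 to 63.0). Replicate 2, 3 or 4 stood apart for CD68, where replicate 2 had 39.4 CPM and the others 36.1 to 36.5, EPGN, where replicate 4 had 94.8 CPM and the others 122 to 124, FOXA1, where replicate 4 had 146 CPM and the others 138.6 to 139.4, and LGR5, where replicate 3 had 0.189 CPM and the others 0.122 to 0.126. For CYBA (0.0168 CPM), IRX3 (0.00782 CPM), MSH5 (0.0156 CPM) and TBX18 (0.00992 CPM) 1 library had a count or so and the others had none. Such values meet the criterion by construction, so the chance rate does not hold for these genes.

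The difference between the lines changed with oxygen at 13 of 263 genes named above that were tested for that interaction by edgeR. HMOX1, haem oxygenase, changed direction, with a log2 difference of -1.95 in normoxia and 1.67 in hypoxia, a change of -3.60 (adjusted p = 2.50e-08). SPRY1 lost part of its excess in PC3, from 5.25 to 2.25, a change of 3.02 (adjusted p = 1.01e-09). For the other genes the log2 difference in normoxia minus that in hypoxia was 0.75 for ALDH1A3 (2.81 and 2.09, adjusted p = 0.0220), 1.05 for BTC (3.50 and 2.48, adjusted p = 8.13e-04), 2.04 for CYP1B1 (5.47 and 3.45, adjusted p = 0.00191), 1.72 for EPGN (9.29 and 7.59, adjusted p = 0.0168), 0.97 for HK2 (1.02 and 0.08, adjusted p = 3.47e-04), 0.74 for HOXA7 (-3.16 and -3.88, adjusted p = 0.00820), 0.71 for HOXB7 (-5.73 and -6.42, adjusted p = 0.0262), 1.06 for HOXC8 (4.63 and 3.59, adjusted p = 0.0115), -0.71 for NFKBIA (2.02 and 2.75, adjusted p = 0.0443), 0.54 for PLK3 (-1.64 and -2.15, adjusted p = 0.0410) and -0.54 for TGFB1 (0.36 and 0.92, adjusted p = 0.0458). None of these 13 differences other than that of HMOX1 changed sign.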

How the results depend on the processing

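The alternatives were followed for 262 of the genes named above, of which 227 passed the 2-fold test. No difference with an adjusted p below 0.05 changed sign under any alternative run. Changes of sign at the remaining genes were not counted. Many of the genes followed had been named for a large difference, so steady signs among them say little about other genes. In all, 7 genes changed side of the 2-fold threshold under at least 1 alternative. PIK3CA passed under median-of-ratios and total-count scaling, at thinned depth and without HCT116 replicate 2, FKBP5 and PMS1 were lost under total-count scaling and DESeq2, CDKN1A under DESeq2, ATM and KIAA0247 with length and GC offsets, and IFITM3 passed under those offsets with the replicate block. Asking for at least 10 counts in every library, which by construction removes genes silent in one line, left 1973 genes higher in PC3 and 1696 in HCT116, 182 list members higher in PC3 (299 in the main count) and 122 named genes past the test. At any size of difference that filter turned the excess of genes higher in PC3 (6520 against 6156) into 5249 against 5297, and upper-quartile scaling into 6335 against 6342. A minimum of 4-fold left 1917 genes higher in PC3 and 1019 in HCT116, and of 8-fold 1384 and 672. Silent genes numbered 65 in PC3 and 199 in HCT116 with no count in any library, 250 and 566 under 0.1 CPM, and 54 and 125 with at least 10 CPM in the other line. With intervals within 0.25 of 0, 657 genes had little difference. DESeq2 called 3163 and 2178 genes at 2-fold. Total-count scaling moved the median log2 difference to 0.13 and gave 60.4% of 2-fold calls to PC3, against 56.7%. A replicate block gave 6308 and 5966 genes that differed and 3183 and 2437 past 2-fold. The block changed none of the named calls on its own. Leaving out 1 library at a time gave 6276 to 6571 genes higher in PC3 and 5936 to 6308 in HCT116, 3136 to 3218 and 2404 to 2498 past 2-fold, 287 to 293 and 135 to 143 list members, 148 to 163 and 343 to 401 silent genes, and 226 to 227 named genes. Depth limits the silent class, since 3 counts stand for a lower level in the deeper HCT116 libraries.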
